A study of Rattus norvegicus with 38 samples.

Results

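The liver RNA of rats given an extract named EF was compared with that of rats labelled control, in the absence of lipopolysaccharide (LPS). The comparison holds 10 of the 38 libraries of the study, 5 of EF (numbered 1 to 5) and 5 of control (numbered 3 to 7), chosen by their treatment label, and it was described across all 14786 genes with enough counts to be tested. All animals were Sprague-Dawley rats, an outbred laboratory strain, and livers were taken on day 28. EF was given into the stomach at 2.5 g/kg; the labels give no fuller name for it and no composition. Other groups were given EF with PF (EF_PF) or EF with RD (EF_RD) into the stomach. The rest received LPS by intraperitoneal injection, alone or with EF, with EF and PF, or with EF and RD. The labels call the cell type hepatocyte and the source liver, and no step that separates hepatocytes is described. All 8 groups carry the same batch label, and the samples are biological replicates per the design text.

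The liver makes a large part of the body's own cholesterol. Acetyl-CoA is turned into mevalonate, then squalene, then cholesterol, and the transcription factor SREBP-2 switches on the genes of this route when sterols in the endoplasmic reticulum run low. The liver also turns cholesterol into bile acids and carries cytochromes P450 that oxidise drugs and plant compounds, several of them induced by foreign chemicals through receptors such as AhR, CAR and PXR. In inflammation it secretes acute-phase proteins.

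The 10 libraries held 21563143 to 27935596 counted read pairs, and 12969 to 13777 genes had at least 10 counts. The 19 hepatocyte markers were abundant in every library: their summed level ran from 216000 to 259000 CPM (counts scaled to a common library size) in control and from 190000 to 259000 CPM in EF. A pair of libraries stood apart on the first principal component of log2 CPM, which held 29.4% of the variance: control 5 at 54.3 and EF 1 at 53.1, with the other 8 between −32.3 and 10.6. Control 5 carried RNA of exocrine pancreas, with 3190 CPM over the 10 tested of 20 digestive enzyme genes against 5.78 to 15.3 CPM in the other 9 libraries. Its erythroid markers (2670 CPM) and cholangiocyte markers (200 CPM) were also the highest of the 10 libraries. EF 1 had the highest sum of neutrophil and monocyte markers (10 of 15 tested), 93.7 CPM, against 12.5 to 47.8 CPM in the other EF and 15.6 to 41.3 CPM in the control libraries. EF 5 stood apart on the second component, which held 15.9%, at −50.2, and together with EF 1 it was high in acute-phase genes, as described below. In bulk tissue, fewer cells of a type and less RNA per cell cannot be told apart.

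In EF livers cholesterol synthesis genes, several P450 genes, the sterol 12-hydroxylase Cyp8b1 and the metallothioneins rose, and cyclin D1, Crem and a few metabolic genes fell. Here a called gene is one whose adjusted p was below 0.05. Without EF 1 and EF 5, 9 of the 22 cholesterol synthesis genes, Cyp8b1 and Cyp1a2 were called, and Mt1, Mt2A, cyclin D1 and Crem were not. Between EF and control 136 genes, 0.92% of those tested, were called, 97 higher (0.656%) and 39 lower (0.264%). The median log2 fold change of all genes was 0.01. Of the called genes, 57 of the higher and 15 of the lower changed at least 2-fold. All 5 EF livers lay beyond all 5 control livers for 70 of the 97 higher and 18 of the 39 lower genes; over all genes tested this held for 1.14% with EF higher and 0.656% with EF lower. At an unadjusted p under 0.05, 984 genes were higher (6.65%) and 695 lower (4.7%).

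Which genes were called, and how many, changed when livers were left out, and the causes were not tested. Without control 5, 93 genes were called higher and 44 lower, of which 71 and 32 were shared with the full comparison. Without EF 1, 43 were higher and 13 lower, and 42 and 10 of them were shared. With both left out, 38 were higher and 14 lower, and 35 and 12 were shared. Without EF 1 and EF 5 together, 23 were higher and 3 lower, and 23 and 2 were shared. The total also moved by over 1.5 times without control 4 (70), control 6 (85), control 7 (83), EF 4 (216) and EF 5 (80). A call survived each of the 10 single omissions for 34 higher and 6 lower genes.

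**Figure D1:**
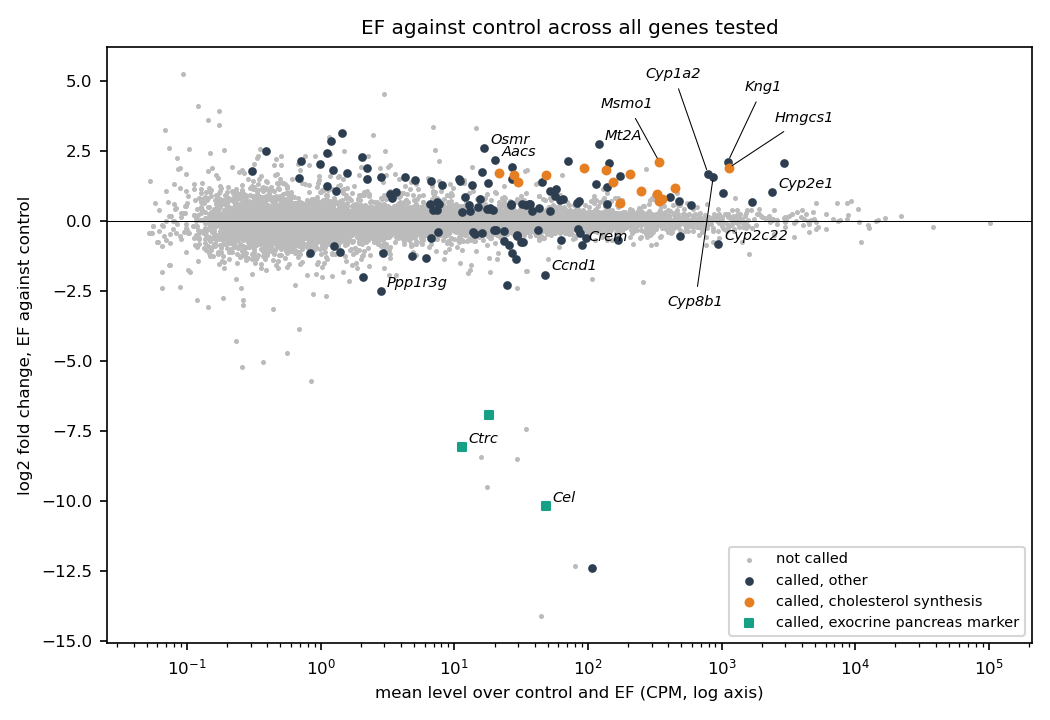
Log2 fold change of EF against control (y axis) by mean level in CPM over both groups (x axis, log scale), 1 point per gene with a mean above 0.05 CPM. Dark points are called genes, orange points called cholesterol synthesis genes, squares called exocrine pancreas markers; the called rises reach 3.13 and the pancreatic genes lie at the bottom.

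Of the 39 gene lists, chosen with earlier results of these data known, the 2 of cholesterol synthesis held the most called genes. Of the 22 genes from acetoacetyl-CoA thiolase to cholesterol, 16 were called higher and 0 lower, against 0.656% and 0.264% of all genes tested. Their median log2 fold change was 1.13, with a range of 0.08 to 2.11. In the mevalonate arm 6 of 9 genes rose (median 1.65), and from squalene synthase onward 10 of 13 rose (median 1.06). In 16 of the 22 genes every EF liver exceeded every control liver, against 1.14% of all genes tested.

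Among the early enzymes the rises were large. Hmgcs1, the cytosolic HMG-CoA synthase that feeds the pathway, is on chromosome 2 at 52427351 to 52445082 of rn6. It stood at 446, 397, 548, 443 and 568 CPM in control 3 to 7 and at 2580, 1790, 2120, 965 and 1460 CPM in EF 1 to 5. The lowest EF liver was above the highest control. Its log2 fold change was 1.89 ± 0.27 (SE; adjusted p = 0.000131). Acat2, the thiolase that joins 2 acetyl-CoA, rose by 1.65 ± 0.31 (adjusted p = 0.00546), though reads of the similar Acat2l1, which also rose (1.44 ± 0.28, adjusted p = 0.00586), may not have been separable. Mvd, which decarboxylates mevalonate diphosphate, rose from 10.1 ± 1.47 to 33.1 ± 9.63 CPM (SD, n = 5 each), and Idi1, the isopentenyl diphosphate isomerase, from 61.1 ± 12.7 to 214 ± 84.8 CPM. Fdps, which makes farnesyl diphosphate, rose by 0.95 ± 0.23 (adjusted p = 0.0341). The 3 members of this arm that edgeR did not call were the mevalonate kinase Mvk (0.69, adjusted p = 0.0722), the phosphomevalonate kinase Pmvk (0.67, adjusted p = 0.0722) and the branch enzyme Ggps1 (0.08, adjusted p = 0.899). DESeq2 called Mvk (adjusted p = 0.0333) and Pmvk (adjusted p = 0.0338), so 8 of the 9 genes of the arm.

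The squalene and sterol steps behaved alike. Msmo1, the sterol C4-methyl oxidase, is on chromosome 16 at 26859441 to 26875880 of rn6 and showed the largest rise of the pathway. It measured 145, 88.4, 157, 126 and 126 CPM in control 3 to 7 and 916, 562, 570, 327 and 403 CPM in EF 1 to 5. The groups did not overlap, and EF 4 was the lowest of the EF livers here as for Hmgcs1. Its log2 fold change was 2.11 ± 0.3 (adjusted p = 0.000131). Sqle, squalene epoxidase, a rate-controlling step, was at 28.9 to 50.4 CPM in control and at 220, 165, 159, 81.7 and 112 CPM in EF 1 to 5 (1.87 ± 0.28, adjusted p = 0.000199). The sterol reductase Tm7sf2 rose by 1.38 ± 0.2 (adjusted p = 0.000133), and in this gene EF 5 was the highest liver at 299 CPM. Hsd17b7, the 3-ketosteroid reductase of the C4-demethylation complex, rose by 1.64 ± 0.27. Fdft1, squalene synthase, rose by 1.06 ± 0.2, and Cyp51, the lanosterol demethylase, by 1.19 ± 0.24. Smaller or more variable rises were called for the lanosterol synthase Lss (1.39 ± 0.35), the desaturase Sc5d (0.72 ± 0.17) and the isomerase Ebp (0.63 ± 0.15). Nsdhl (0.58, adjusted p = 0.0524), Dhcr7 (0.71, adjusted p = 0.137) and Lbr (0.32, adjusted p = 0.297) were not called by edgeR. DESeq2 called Nsdhl (adjusted p = 0.0166) and 11 of the 13 genes of this arm.

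**Figure D2:**
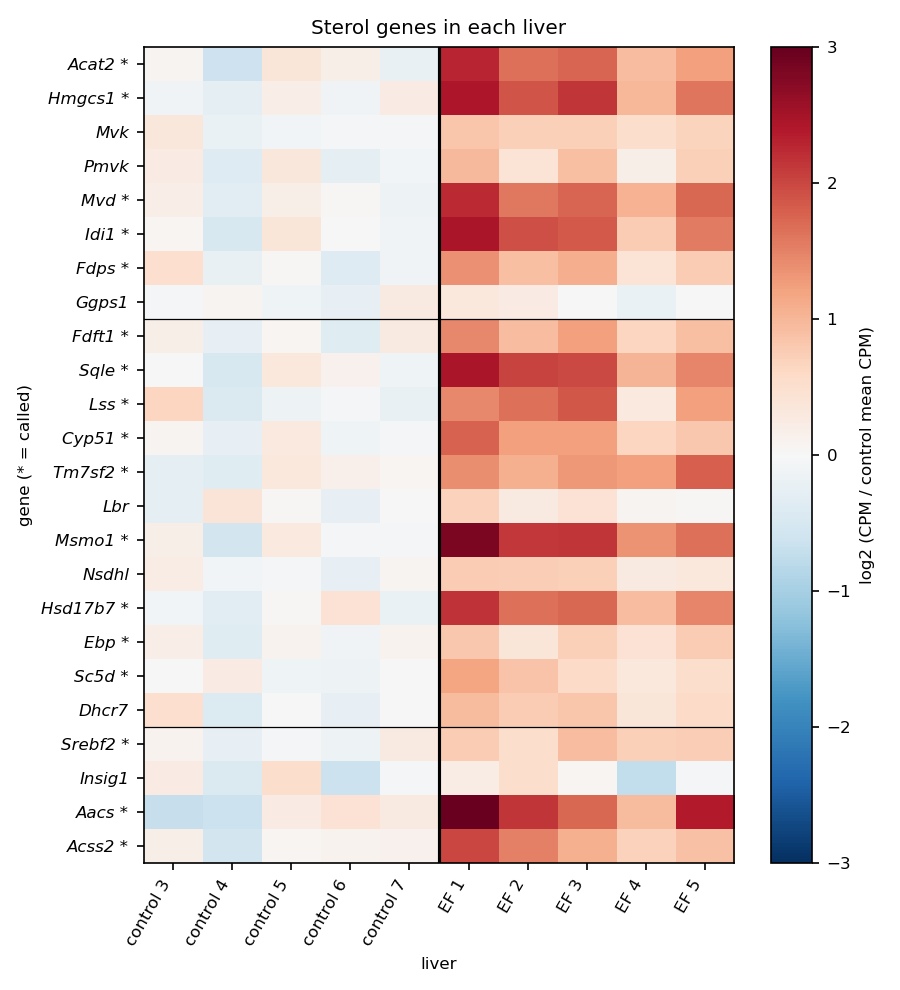
Log2 ratio of each liver's CPM to the mean of the 5 controls (colour), for the mevalonate arm (top block), the squalene to cholesterol arm (middle block) and 4 related genes (bottom block), in 10 livers; 20 of the 22 pathway genes are drawn. Nearly all pathway genes are red in the 5 EF livers and pale in the controls; EF 4 is the palest EF liver and Insig1 shows no shift.

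The size of the rise differed between livers. The median log2 ratio of the 22 genes to the control mean was 1.41, 1, 1.23, 0.63 and 0.85 in EF 1 to 5, and it lay between −0.32 and 0.09 in the controls. Their summed level was 9240, 7010, 7270, 4530 and 5650 CPM in EF 1 to 5 against 2480 to 3050 CPM in the controls. Every EF liver was thus above every control. Without control 5 and EF 1 the median log2 fold change of the 22 genes was 1.02 with 10 called, and without EF 1 and EF 5 it was 1.01 with 9 called. Calls of Msmo1, Hmgcs1, Sqle, Idi1, Mvd, Tm7sf2 and Hsd17b7 remained in each of the 22 alternatives tried. Those of Lss, Fdps, Ebp and Sc5d were lost in several single omissions, with adjusted p as high as 0.132 for Lss (without control 4), 0.12 for Fdps (without EF 1), 0.122 for Ebp (without control 4) and 0.122 for Sc5d (without EF 1).

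The start regions of Hmgcs1 and Msmo1, the most significant genes of each arm, are shown because the route is switched on at its promoters. The windows run from 250 bases before to 50 after the annotated start and are RefSeq sequence of build GRCr8, 5′ to 3′ on the gene's strand. Capitals mark CCAAT on either strand (CCAAT or its reverse complement), the box bound by NF-Y, a partner of SREBP at sterol promoters.
Hmgcs1 (chr2:53382054-53382353, plus strand): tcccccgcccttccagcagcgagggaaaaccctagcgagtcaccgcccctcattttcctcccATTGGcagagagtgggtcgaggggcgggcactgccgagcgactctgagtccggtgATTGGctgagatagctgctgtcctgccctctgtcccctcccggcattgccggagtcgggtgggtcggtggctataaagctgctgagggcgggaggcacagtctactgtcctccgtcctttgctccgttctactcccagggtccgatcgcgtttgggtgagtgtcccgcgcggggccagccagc
Msmo1 (chr16:29746863-29747162, plus strand): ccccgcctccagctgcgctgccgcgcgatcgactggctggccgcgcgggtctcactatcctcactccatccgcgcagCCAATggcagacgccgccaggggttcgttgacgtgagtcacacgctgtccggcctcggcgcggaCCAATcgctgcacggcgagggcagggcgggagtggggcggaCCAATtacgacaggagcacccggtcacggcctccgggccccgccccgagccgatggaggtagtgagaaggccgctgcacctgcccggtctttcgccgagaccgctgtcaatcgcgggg
The RefSeq table held windows for 17 of the 22 genes. CCAAT occurred in 14 of the 17 and in 37.5% of all 33469 windows. Hmgcs1 had 2 copies and Msmo1 3, where 11.2% of all windows had 2 or more. TCACNCCAC, the core of a sterol regulatory element, was in 0 of the 17 windows and in 1.12% of all windows on either strand. These matches describe the letters in these windows and identify no bound site.

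The sterol regulators moved in part. Srebf2, which encodes SREBP-2, stood at 49.8, 39.5, 45, 42.1 and 56.1 CPM in control 3 to 7 and at 79.4, 67.4, 87.7, 76.3 and 77.6 CPM in EF 1 to 5. The groups did not overlap and the EF livers were close together (0.74 ± 0.12, adjusted p = 0.00104), and the call remained in every alternative. Insig1, the sterol-sensing anchor of SREBP processing, was 443 ± 145 and 462 ± 136 CPM (0.06 ± 0.28, adjusted p = 0.969). Of the 21 tested genes for sterol sensing, uptake and export, 2 rose and 0 fell, with a median of 0.14.

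A pair of genes that activate precursors of acetyl-CoA units also rose. Aacs, acetoacetyl-CoA synthetase, which turns ketone bodies into lipid precursors, was at 4.52, 4.64, 8.65, 9.93 and 8.82 CPM in control 3 to 7 and at 56.7, 32.4, 24.2, 14.1 and 37.9 CPM in EF 1 to 5. All EF livers were higher, with EF 4 nearest to the controls (2.18 ± 0.4, adjusted p = 0.00415). EF 1 and EF 5 were the highest, and without both the value was 1.68 (adjusted p = 0.115). Acss2, cytosolic acetyl-CoA synthetase, rose by 1.31 ± 0.27 (adjusted p = 0.0111); the call was lost without EF 1 (adjusted p = 0.0693) and in 1 other omission. Aacs was the 1 called gene of 7 in ketone body metabolism, and Acss2 the 1 of 22 in lipogenesis. The lipogenesis list had a median of 0.07, and its fatty acid synthase Fasn (0.73, adjusted p = 0.491) and regulator Srebf1 (−0.7, adjusted p = 0.402) were not called. Of 28 genes of fatty acid oxidation and PPARα targets 0 were called by edgeR and 1 by DESeq2, 7 had an unadjusted p under 0.05 with EF higher, and the median was 0.27. Mmab, a cobalamin enzyme whose gene lies beside Mvk in mammals, rose by 0.84 ± 0.18 (adjusted p = 0.0166). Its call was lost in 3 single omissions, with an adjusted p of up to 0.0618 (without control 6).

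Of the bile acid genes, edgeR called Cyp8b1. It encodes the sterol 12-hydroxylase that directs synthesis to cholic acid, and lies on chromosome 8 at 130548418 to 130550388 of rn6. It stood at 460, 427, 370, 606 and 303 CPM in control 3 to 7 and at 955, 933, 1590, 1380 and 1630 CPM in EF 1 to 5. Each EF liver exceeded each control, and here EF 3, 4 and 5 were higher than EF 1 and 2, unlike the cholesterol genes. The log2 fold change was 1.58 ± 0.21 (adjusted p = 9.37e-05), and the call remained in all 22 alternatives. Cyp7a1, which sets the pace of the classical bile acid route, was at 145, 102, 151, 156 and 35.6 CPM in control 3 to 7 and at 588, 1020, 174, 243 and 104 CPM in EF 1 to 5. EF 5 lay among the controls, and the difference did not pass in edgeR (1.85 ± 0.53, adjusted p = 0.0828), whereas DESeq2 called it (adjusted p = 0.0401). Nr0b2, the repressor SHP, had 4.5, 45.3, 4.78, 17.2 and 4.48 CPM in EF 1 to 5 against 18.6 to 90.2 CPM in control, also without a call (−1.8 ± 0.66, adjusted p = 0.223). Of the 22 bile acid genes tested, edgeR called 1 higher and DESeq2 2, and neither called any lower (median 0.2). At an unadjusted p under 0.05, 8 were higher and 2 lower in edgeR.

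Xenobiotic enzymes gave single calls in several lists. Cyp1a2, the constitutive hepatic target of AhR that oxidises caffeine and aromatic amines, lies on chromosome 8 at 62451360 to 62458244 of rn6. It was at 315, 420, 470, 337 and 330 CPM in control 3 to 7 and at 1270, 1100, 1000, 815 and 1840 CPM in EF 1 to 5. No liver overlapped between the groups (1.69 ± 0.26, adjusted p = 0.000273), and the call remained in all 22 alternatives. Cyp1a1, the inducible AhR target, was at 0.33 to 1.58 CPM in control and at 6.78, 2.62, 1.72, 1.3 and 2.16 CPM in EF 1 to 5, and was not called (1.64 ± 0.62, adjusted p = 0.243). Cyp1b1 showed −0.3 ± 0.7 (adjusted p = 0.931). Ahrr, the AhR repressor, had 1 count in the control and 5 in the EF libraries and was not tested. Of 8 tested genes of the AhR list 1 rose (median 0.34).

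Cyp2e1, which oxidises ethanol and ketones, was at 1590, 2010, 1780, 1340 and 1060 CPM in control 3 to 7 and at 2660, 3380, 3360, 2880 and 3760 CPM in EF 1 to 5. The groups did not overlap (1.04 ± 0.24, adjusted p = 0.0222); the call was lost in 3 single omissions, with an adjusted p of up to 0.0761 (without control 7). Cyp2c6v1, an abundant P450 of rat liver, rose by 0.68 ± 0.15 (adjusted p = 0.017), a difference that did not pass in 2 single omissions, with an adjusted p of up to 0.0715 (without control 6). Cyp2b2, a rat target of CAR, rose by 1.5 ± 0.38 (adjusted p = 0.0464), but the call was lost in 9 of 10 single omissions, with an adjusted p of up to 0.132 (without control 4). The near-identical Cyp2b1 was not called (1.24, adjusted p = 0.542). Of 19 CAR and PXR genes 1 rose and of 25 conjugating enzymes 1 rose, the glutathione transferase Gsta3 (1.76 ± 0.45, adjusted p = 0.0468), which did not pass in 7 of 10 single omissions, with an adjusted p of up to 0.19 (without EF 5). Reads shared within the Cyp2b, Cyp2c and Gsta families could not be assigned with certainty. The flavin monooxygenase Fmo1 (1.61 ± 0.31, adjusted p = 0.00586) and glutamine synthetase Glul (0.84 ± 0.17, adjusted p = 0.00826) also rose and, like the transporter below, were chosen after their values were seen. Slc13a3, a sodium-coupled dicarboxylate transporter, had the smallest adjusted p of all genes. It was at 19.7, 29.1, 27.7, 27 and 22.1 CPM in control 3 to 7 and at 69.4, 50.3, 59.4, 54.1 and 96.5 CPM in EF 1 to 5 (1.39 ± 0.16, adjusted p = 6.19e-06).

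**Figure D3:**
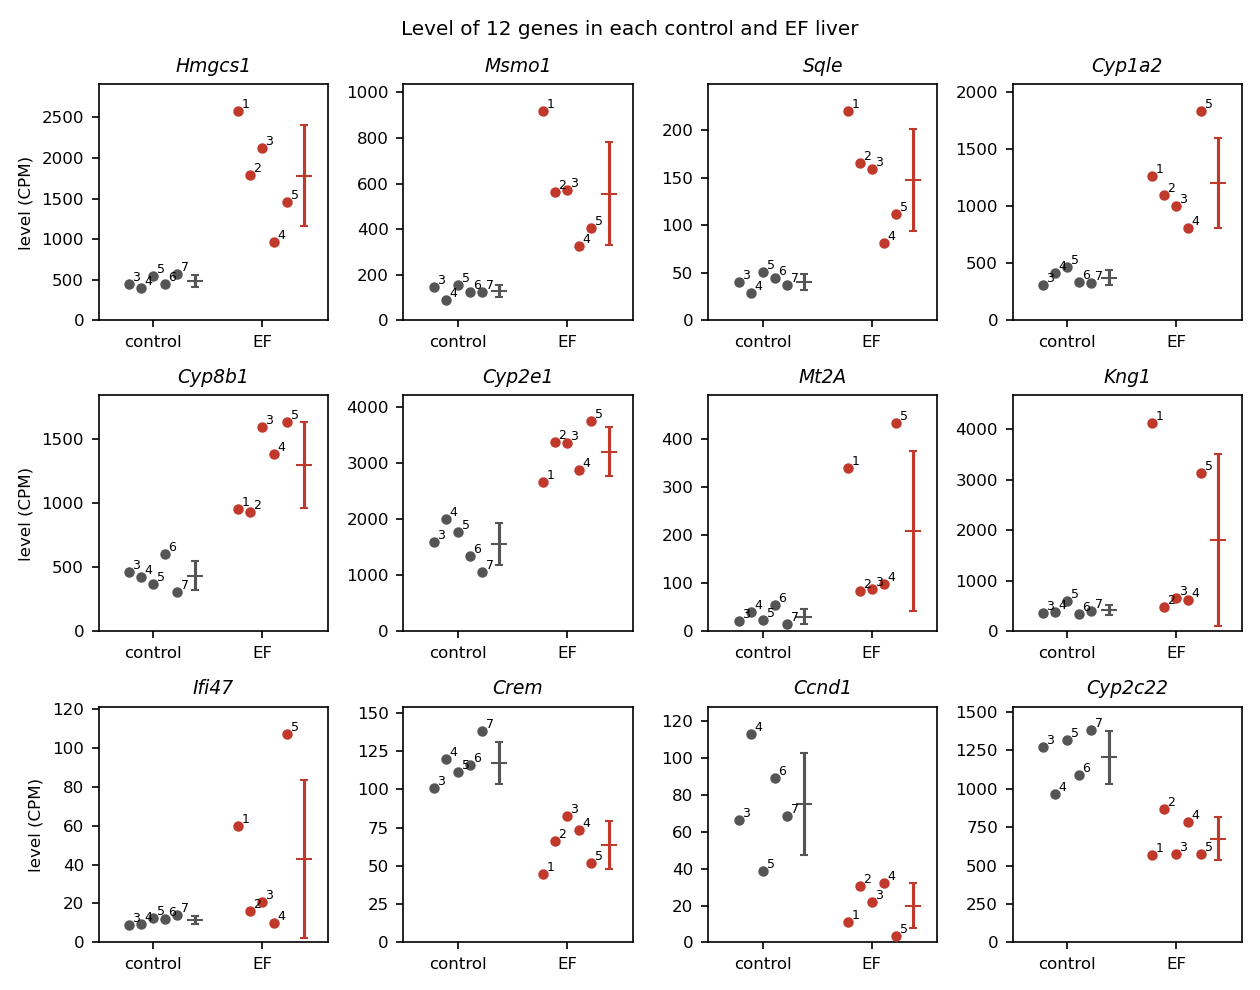
CPM (y axis, linear from 0) of 12 genes in each of 5 control and 5 EF livers, numbered as in the labels; the cross bar beside each group is the mean and the error bar the SD. Hmgcs1, Msmo1, Sqle, Cyp1a2, Cyp8b1, Cyp2e1 and Mt2A are higher and Crem, Ccnd1 and Cyp2c22 lower in every EF liver, whereas Kng1 and Ifi47 are high in EF 1 and EF 5.

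Metallothioneins, small cysteine-rich proteins that bind zinc and copper, rose. Mt2A was at 21, 40.6, 23.8, 54.5 and 15 CPM in control 3 to 7 and at 339, 84.6, 88.9, 97.6 and 433 CPM in EF 1 to 5. Every EF liver was above every control, with EF 1 and EF 5 far above the other 3 EF livers. The log2 fold change was 2.75 ± 0.52 (adjusted p = 0.00546). Mt1 was at 33.9 to 88.7 CPM in control and at 341, 136, 123, 160 and 406 CPM in EF 1 to 5 (2.05 ± 0.49, adjusted p = 0.0341); its call was lost in 6 single omissions, with an adjusted p of up to 0.113 (without EF 5). Without EF 1 and EF 5 the values were 1.54 for Mt2A (adjusted p = 0.324) and 1.32 for Mt1 (adjusted p = 0.493). Mt1 and Mt2A are related genes, and reads shared between them are uncertain. Of 12 tested metallothionein and zinc transport genes 2 rose and 0 fell (median 0.16). Mt1m, a metallothionein entry outside this list, was also called higher, with EF 1 and EF 5 the highest EF livers. Its call was lost in 6 single omissions, with an adjusted p of up to 0.119 (without EF 5).

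The start windows of Mt1 and Mt2A are shown for their metal response elements, the sites through which the zinc sensor MTF-1 acts. Capitals mark TGCACNC or TGCGCNC on either strand (RefSeq, GRCr8); overlapping matches are joined.
Mt1 (chr19:10832926-10833225, minus strand): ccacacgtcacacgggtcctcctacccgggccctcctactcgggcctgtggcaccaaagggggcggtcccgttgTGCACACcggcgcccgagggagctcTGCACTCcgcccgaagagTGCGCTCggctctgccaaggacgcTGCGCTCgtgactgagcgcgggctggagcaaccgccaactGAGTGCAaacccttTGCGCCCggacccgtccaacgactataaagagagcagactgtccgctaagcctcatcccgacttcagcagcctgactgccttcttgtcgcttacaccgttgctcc
Mt2A (chr19:10838659-10838958, minus strand): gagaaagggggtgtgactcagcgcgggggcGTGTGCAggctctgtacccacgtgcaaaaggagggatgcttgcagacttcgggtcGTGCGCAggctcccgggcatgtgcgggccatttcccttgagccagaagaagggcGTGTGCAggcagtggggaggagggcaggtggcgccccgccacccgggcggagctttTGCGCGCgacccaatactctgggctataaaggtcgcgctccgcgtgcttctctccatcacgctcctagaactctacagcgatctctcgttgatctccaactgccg
Mt1 had 6 matches and Mt2A 4. At least 1 match occurred in 24.2% of all windows, and 2 or more in 6.36%.

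Several of the largest rises belonged to EF 1 and EF 5. Kng1, a kininogen, was at 356, 388, 598, 348 and 408 CPM in control 3 to 7 and at 4120, 485, 664, 617 and 3140 CPM in EF 1 to 5. EF 2 lay within the control range. The call (2.11 ± 0.46, adjusted p = 0.017) was lost in 4 single omissions, with an adjusted p of up to 0.115 (without EF 1), and without EF 1 and EF 5 the value was 0.49 (adjusted p = 0.828). The related Kng1l1 followed it closely (2.08 ± 0.45, adjusted p = 0.0158; 0.49 without both livers, adjusted p = 0.817), and reads shared between them are uncertain. Kng1 was the 1 called gene of 32 in complement and coagulation, a list with a median of 0.11. Osmr, the oncostatin M receptor subunit, measured 61.5, 8.99, 27, 7.1 and 39.2 CPM in EF 1 to 5 against 0.838 to 10.9 CPM in control (2.6 ± 0.65, adjusted p = 0.0432). Without EF 1 and EF 5 it was 1.6 (adjusted p = 0.551). Ifi47, an interferon-inducible GTPase, was at 8.85 to 14 CPM in control and at 59.8, 16.4, 20.9, 10.2 and 107 CPM in EF 1 to 5 (1.92 ± 0.46, adjusted p = 0.0341; 0.47 without EF 1 and EF 5, adjusted p = 0.849). The hepatokine Fgl1 rose by 1.01 ± 0.26 (adjusted p = 0.0467), which did not pass in 6 single omissions, with an adjusted p of up to 0.238 (without EF 1). Colq, the collagen tail of acetylcholinesterase, was called at 3.13 ± 0.77 (adjusted p = 0.0408) with EF 5 at 7.95 CPM and the other EF livers at 0.281 to 2.07 CPM, and lost its call in 7 single omissions, with an adjusted p of up to 0.241 (without EF 5).

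The list of classical acute-phase genes, which holds neither Kng1 nor Kng1l1, gave no call. Of 22 tested, 0 passed in either direction by edgeR's quasi-likelihood test, 9 had an unadjusted p under 0.05 and a positive sign, and the median was 0.34. DESeq2 and limma-voom also called 0. In 18 of the 22 genes EF 1 and EF 5 were the highest 2 of the 5 EF livers, against 9.67% of all genes. Their summed level was 144000 CPM in EF 1 and 158000 CPM in EF 5, against 83600 to 104000 CPM in EF 2 to 4 and 85400 to 106000 CPM in control. The same pair was highest in 11 of the 13 mitochondrially encoded genes, whose sum was 46500 CPM in EF 1, 50000 CPM in EF 5, 34600 to 45700 CPM in EF 2 to 4 and 35900 to 40300 CPM in control. It was also highest in 7 of 10 erythroid markers, with sums of 1290 and 1980 CPM in EF 1 and EF 5 against 347 to 778 CPM in EF 2 to 4. A2m, a major acute-phase protein of the rat, was at 0.536 to 2.04 CPM in control and at 17.2, 1.64, 1.89, 2.33 and 3.51 CPM in EF 1 to 5 (2 ± 0.87, adjusted p = 0.351). Lcn2, an iron-sequestering protein of neutrophils and liver, was at 51.5 CPM in EF 1 and at 0.0383 to 5.79 CPM in the other 9 livers (3.35 ± 1.61, adjusted p = 0.428). The fibrinogen chain Fga reached 14400 and 20300 CPM in EF 1 and EF 5 against 6220 to 7670 CPM in control. The part of these acute-phase, mitochondrial and erythroid levels, and of the neutrophil markers of EF 1, in the other differences was not tested. Without EF 1 and EF 5, Msmo1 was at 1.92 (adjusted p = 0.0028), Cyp8b1 at 1.59 (adjusted p = 0.000775) and Cyp1a2 at 1.38 (adjusted p = 0.0154). In that setting 33 of the 54 named genes tested lost their call. Of 31 interferon-stimulated genes 0 were called by edgeR, DESeq2 or limma-voom (median 0.03), and 1 had an unadjusted p under 0.05, with EF lower.

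**Figure D4:**
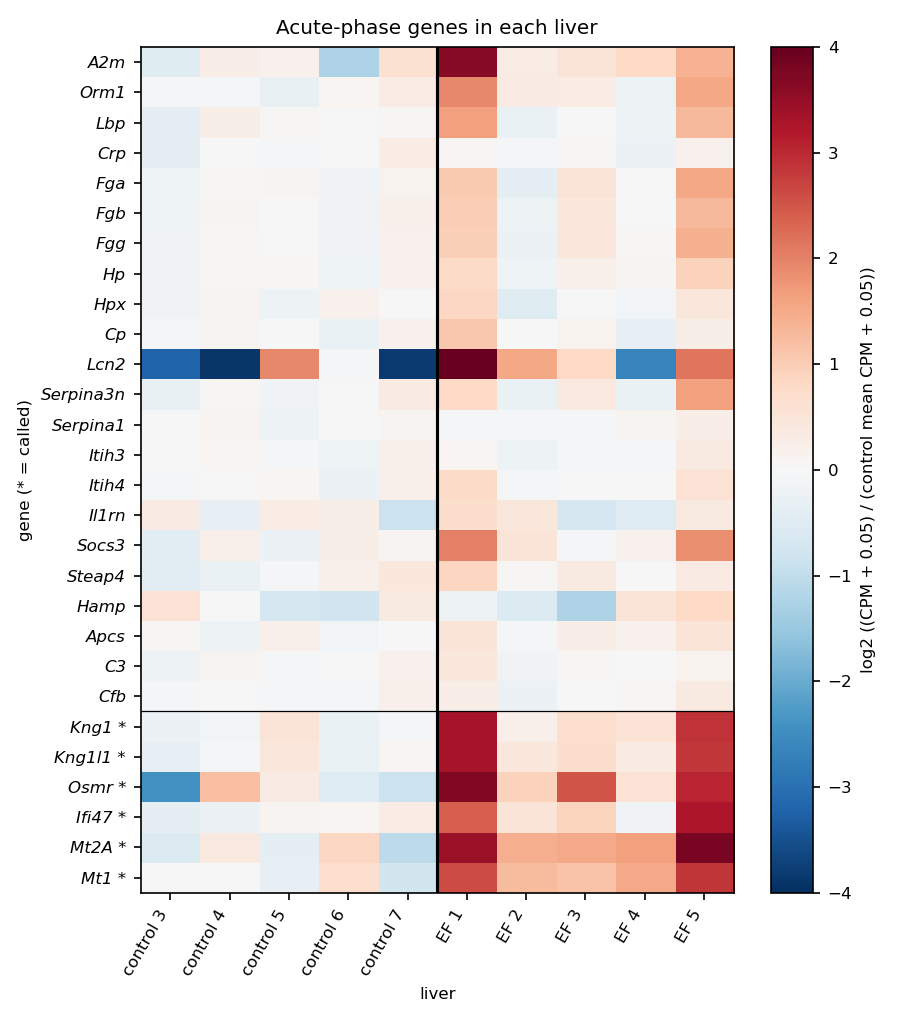
Log2 ratio of each liver's level to the control mean, with 0.05 CPM added to both (colour), for 22 acute-phase genes (top block) and 6 genes called in EF against control (bottom block). EF 1 and EF 5 are red for most genes of both blocks, and EF 2 to 4 are pale in the top block; the metallothioneins are red in all 5 EF livers.

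Fewer genes fell, and most of them modestly. Ppp1r3g, a glycogen-targeting subunit of protein phosphatase 1, was at 3.4, 8.78, 3.21, 6.22 and 2.22 CPM in control 3 to 7 and at 1.09, 1.5, 0.258, 0.867 and 0.507 CPM in EF 1 to 5. All EF livers were lower (−2.5 ± 0.52, adjusted p = 0.0107), which did not pass without control 4 (adjusted p = 0.0544). It was the 1 called of 16 glycogen and glucose entry genes. Ccnd1, cyclin D1, which drives cells from rest into the cycle, was at 66.4, 113, 38.9, 89.2 and 68.5 CPM in control 3 to 7 and at 11.1, 30.5, 22.1, 32.2 and 3.72 CPM in EF 1 to 5. The groups did not overlap (−1.92 ± 0.48, adjusted p = 0.0425), but the call was lost in 6 single omissions, with an adjusted p of up to 0.123 (without control 4). Without EF 1 and EF 5, Ccnd1 was at −1.41 (adjusted p = 0.405). It was the 1 called of 28 proliferation genes, whose median was −0.32; the cycle markers Mki67 (−0.37, adjusted p = 0.822) and Top2a (−0.47, adjusted p = 0.777) were not called. Sesn2, a stress-induced inhibitor of mTORC1, fell by 1.14 ± 0.25 on the log2 scale (adjusted p = 0.0163) and was the 1 called of 16 genes of the integrated stress response. That call was lost in 3 single omissions, with an adjusted p of up to 0.0616 (without EF 1).

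Crem, the cAMP response element modulator, was at 101, 120, 111, 116 and 138 CPM in control 3 to 7 and at 44.4, 66.2, 82.7, 73.3 and 52 CPM in EF 1 to 5. No liver overlapped, and the difference (−0.88 ± 0.17, adjusted p = 0.00551) was called in all 10 single omissions. Without EF 1 and EF 5 it was −0.67 (adjusted p = 0.182). Crem has 3 start windows in RefSeq; the one shown, internal to the gene, holds 2 copies of the cAMP response element TGACGTCA (capitals; palindromic), which 1.83% of all windows hold at least once.
Crem (chr17:58985240-58985539, plus strand): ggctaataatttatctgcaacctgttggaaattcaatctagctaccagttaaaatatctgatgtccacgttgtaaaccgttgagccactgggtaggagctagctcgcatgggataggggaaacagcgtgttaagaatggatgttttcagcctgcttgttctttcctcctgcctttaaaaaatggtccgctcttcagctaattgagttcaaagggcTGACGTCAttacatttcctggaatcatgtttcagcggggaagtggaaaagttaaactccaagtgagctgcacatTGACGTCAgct
The P450 genes Cyp4f39 (−1.37 ± 0.28, adjusted p = 0.00826) and Cyp2c22 (−0.84 ± 0.18, adjusted p = 0.0135) fell while other members of their superfamily rose. Without EF 1 and EF 5, Cyp4f39 was at −0.99 (adjusted p = 0.204). Cyp2c22 did not pass without EF 1 (adjusted p = 0.0555), and without EF 1 and EF 5 it had an adjusted p of 0.261. Cyp2c22 was at 1270, 967, 1320, 1090 and 1380 CPM in control 3 to 7 and at 569, 867, 576, 785 and 578 CPM in EF 1 to 5. The lowest control was above the highest EF liver. Abcc8, the sulfonylurea receptor, fell by 1.34 ± 0.29 on the log2 scale (adjusted p = 0.0139), the corepressor Tle3 by 1.24 ± 0.29 (adjusted p = 0.0263), Palm2, a paralemmin, by 1.14 ± 0.28 (adjusted p = 0.0383) and the membrane metalloprotease Mmp15 by 0.86 ± 0.22 (adjusted p = 0.045). The calls of Abcc8, Tle3, Palm2 and Mmp15 were each lost in at least 1 omission, with adjusted p up to 0.0615 for Abcc8 (without EF 1), 0.156 for Tle3 (without control 6), 0.136 for Palm2 (without control 4) and 0.131 for Mmp15 (without EF 1).

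The largest negative fold changes came from the pancreatic RNA of control 5. Cel, the bile salt-stimulated lipase, was at 487 CPM in control 5 and at 0 to 0.233 CPM in the other 9 livers. The chymotrypsin Ctrc was at 113 CPM in control 5 against at most 0.206 CPM elsewhere, and the elastase Cela2a at 180 against at most 0.652 CPM. These 3 genes were called lower at −10.2 ± 2.6, −8.09 ± 1.96 and −6.93 ± 1.76 (adjusted p = 0.0469, 0.0353 and 0.0469). Without control 5 they were at −0.78, −0.09 and −0.59 (adjusted p = 0.969, 0.994 and 0.946). LOC103689940, named after its values were seen, had 1070 CPM in control 5 and at most 0.136 CPM in the other livers. The trypsin Prss1 (445 CPM in control 5, adjusted p = 0.0703) and the elastase Cela1 (201 CPM, adjusted p = 0.0987) were not called.

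In many of the other pathways no call was made. By edgeR's quasi-likelihood test, 0 genes were called among 12 for gluconeogenesis, 19 for amino acid breakdown and the urea cycle, 17 for endoplasmic reticulum chaperones, 15 heat shock genes, 18 Nrf2 targets, 14 for iron handling, 10 carboxylesterases, 19 clock genes, 19 for growth hormone and sex-biased expression, and 22 immediate early and glucocorticoid targets. Their medians lay between −0.23 (gluconeogenesis) and 0.08 (heat shock). For 2 of the 12 gluconeogenesis genes, Pck1 and G6pc, every EF liver was below every control, against 0.656% of all genes, and for 0 above. The summed level of the 12 was 5000 to 8460 CPM in EF and 8410 to 11100 CPM in control. At an unadjusted p under 0.05 each list held 0 to 3 genes higher and 0 to 3 lower. DESeq2 and limma-voom called 0 genes of these lists as well, except 1 carboxylesterase called higher by DESeq2. Of the markers of Kupffer cells, endothelium, stellate cells, cholangiocytes, lymphocytes, erythroid cells, neutrophils and monocytes, muscle and fat, edgeR and limma-voom called 0. DESeq2 called 2 of the 10 neutrophil and monocyte markers higher, and 4 of them had an unadjusted p under 0.05 in edgeR.

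The same extract was also compared in LPS-treated livers (LPS_EF against LPS, n = 5 each). There 16 genes, 0.108%, were called, 11 higher (0.0744%) and 5 lower (0.0338%), and 810 genes had an unadjusted p under 0.05 with LPS_EF higher (5.48%) and 642 with it lower (4.34%). In all, 5 were called in both comparisons and in the same direction, which is 3.68% of the 136 and 31.2% of the 16. They were Cyp8b1, Cyp1a2, Cyp2c22, the chemokine scavenging receptor Ackr2 and LOC102551973. Cyp8b1 rose by 1.74 ± 0.21 with LPS (adjusted p = 2.7e-05) and Cyp1a2 by 1.25 ± 0.25 (adjusted p = 0.0436). Ackr2 rose by 1.04 ± 0.2 without LPS (adjusted p = 0.0062) and by 1.27 ± 0.2 with it (adjusted p = 0.00292). Cyp2c22 was at −0.86 ± 0.18 with LPS (adjusted p = 0.0452). Markers of other tissues also differed here. The 10 exocrine pancreas markers had a median of −8.52 in LPS_EF against LPS, and 9 were lower at an unadjusted p under 0.05 in edgeR. For the 10 skeletal muscle markers the median was −3.15, and 6 were lower at that threshold. By adjusted p 0 of either list were called, and DESeq2 and limma-voom had 0 at the unadjusted threshold. Their part in the calls with LPS and in the interaction was not tested.

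Cholesterol genes differed between the settings. With LPS, 0 of the 22 were called by edgeR's quasi-likelihood test, DESeq2 or limma-voom, 1 had an unadjusted p under 0.05 (higher), and their median was −0.16. The interaction, the EF difference with LPS minus that without, was called for 16 genes (0.108%), all lower and all also called in EF against control. The interaction reuses the EF and control livers with the opposite sign, so this overlap is not independent of the first comparison. At an unadjusted p under 0.05 it was higher for 446 genes (3.02%) and lower for 570 (3.85%), 20 of the 22 cholesterol genes among the latter. Of the 16 called genes, 8 were cholesterol genes, with Msmo1 at −2.47 ± 0.41 (adjusted p = 0.00909), Hmgcs1 at −2.17 ± 0.37, Sqle at −2.2 ± 0.38, Acat2 at −2.23 ± 0.44, Idi1 at −2.14 ± 0.41, Mvd at −2.14 ± 0.4, Hsd17b7 at −1.77 ± 0.38 and Fdft1 at −1.34 ± 0.28 (adjusted p at most 0.0495). Mmab, Acat2l1 and the endoplasmic reticulum gene Tmem41b were among the others. Hmgcs1 averaged 481 ± 73.6 CPM in control, 1780 ± 617 in EF, 1410 ± 330 in LPS and 1170 ± 434 in LPS_EF (SD, n = 5 each). The mean of the LPS livers was nearer to that of EF than to that of control.

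The 16 calls with LPS fell to 3 without LPS 1, to 2 without LPS 2, LPS 4, LPS 5 or LPS_EF 5, to 3 without LPS_EF 7 and to 9 without LPS_EF 6. The 16 interaction calls fell to 5 without control 4, EF 1, LPS 1, LPS_EF 5 or LPS_EF 7, to 8 without LPS 4 or LPS_EF 4 and to 10 without control 6, control 7 or LPS 5. Without control 5 and EF 1 together the interaction kept 3 calls.

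**Figure D5:**
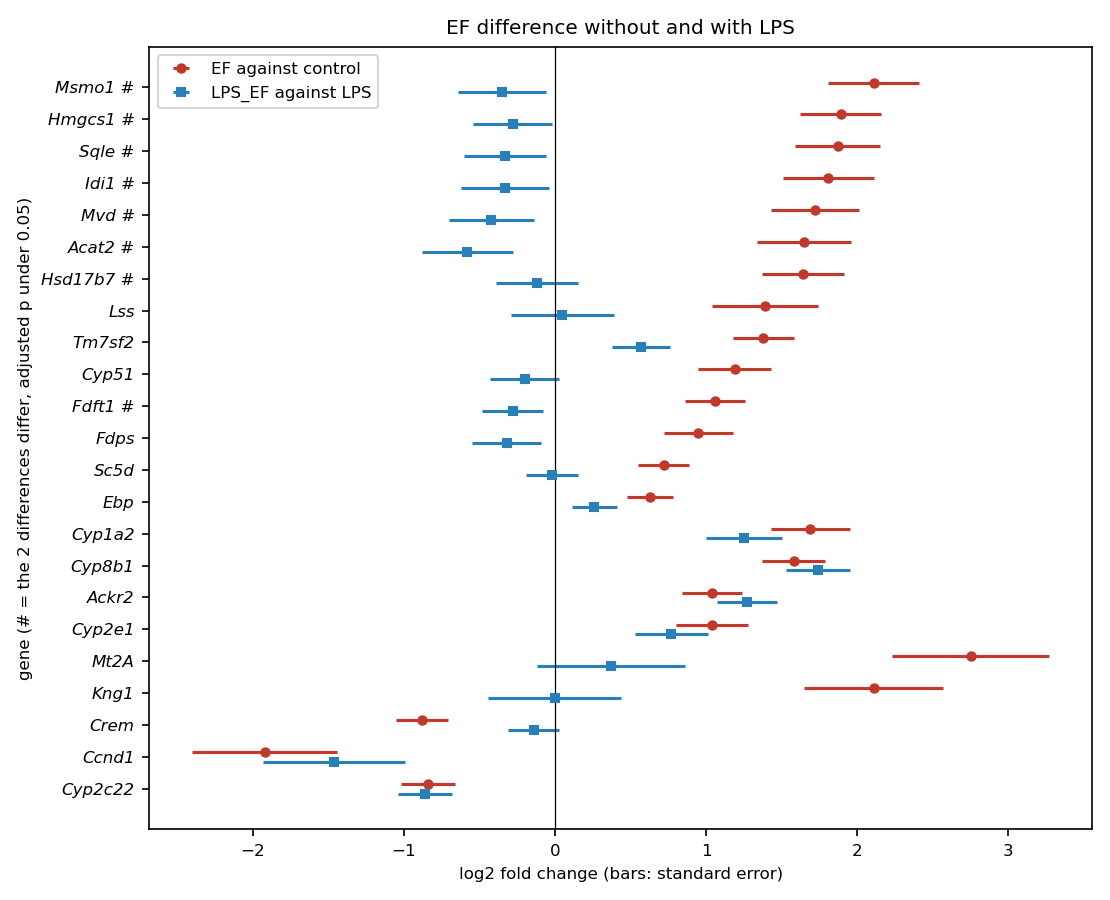
Log2 fold change with its standard error (x axis) of 23 genes (y axis) for EF against control (circles) and LPS_EF against LPS (squares), n = 5 livers a group; # marks genes whose 2 differences differ at an adjusted p under 0.05. The sterol genes are to the right of 0 without LPS and near or left of 0 with it, except Tm7sf2 at 0.57 and Ebp at 0.26, while Cyp1a2, Cyp8b1, Ackr2 and Cyp2c22 have both symbols on the same side.

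Levels in the groups given EF with PF or with RD are given as descriptions. Hmgcs1 averaged 1280 ± 173 CPM in EF_PF (SD, n = 5) and 875 ± 128 CPM in EF_RD (n = 4), between control and EF in both. Cyp8b1 averaged 1340 ± 177 CPM in EF_PF and 1450 ± 275 CPM in EF_RD, against 1300 ± 336 CPM in EF and 433 ± 114 CPM in control. Cyp1a2 averaged 2580 ± 529 CPM in EF_PF and 996 ± 229 CPM in EF_RD, so the EF_PF livers were the highest. Cyp1a1 averaged 127 ± 67.2 CPM in EF_PF, 5.07 ± 2.51 CPM in EF_RD and 2.92 ± 2.21 CPM in EF. Crem averaged 59.5 ± 10.8 CPM in EF_PF and 61.8 ± 10.6 CPM in EF_RD, close to its 63.7 ± 15.6 CPM in EF. All of these groups share the same control livers when set against control.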

How the data were processed

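Liver RNA of 38 rats in 8 groups was sequenced by the authors. Per the file headers, read pairs were counted per gene name with featureCounts 2.0.6 and an rn6 RefSeq annotation, without a strand or multimapping option; STAR, RSEM and mRatBN7.2 are named in addition, per the submitters' processing notes. The deposited counts are raw. Reads of overlapping antisense genes cannot be told apart, and reads shared by near-identical genes are uncertain. The authors' deposited TPM values were length-scaled counts (largest relative difference 0.0495%) and served in alternative fits.

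Counts of all 38 libraries were fitted with edgeR 4.0.16 (R 4.3.3; filterByExpr with a minimum count of 10, TMM scaling, quasi-likelihood, 1 mean per group), pooling the spread over the groups. Two-sided p-values were given Benjamini-Hochberg adjustment over 14786 genes; calls were made at an adjusted p under 0.05. CPM are TMM-scaled. SE of the log2 fold change were calculated as its absolute value over the square root of the quasi-likelihood F statistic. The script was tested on simulated data. Alternatives were RLE and total-count scaling, no filter, only the groups compared, a replicate block, leaving out livers, limma-voom and limma-trend on log2(TPM + 1) or log2(TPM + 0.1) (limma 3.58.1), and DESeq2 1.42.0. Without molecular identifiers, pairs can be copies of 1 molecule; depth was 21563143 to 27935596 pairs in control and EF. Members and 39 gene lists were chosen with earlier results of these data known.

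Genes named were, among those called with 2 CPM or more as the mean of the higher group and a non-provisional symbol, the 15 largest rises, 12 largest falls and 6 most abundant, then every called list member, and Cyp1a1, Cyp1b1, Ahrr, Cyp7a1, A2m, Lcn2, Prss1 and Cela1; some genes that met the rule are not reported here. The sources used here do not give LPS dose and timing or the animals' age and sex. Without control 5 and EF 1, Msmo1 was at 1.94 (adjusted p = 0.00225), Cyp8b1 at 1.63 (adjusted p = 0.000678) and Cyp1a2 at 1.77 (adjusted p = 0.00225). In that setting 24 of the 53 named genes tested lost their call. Among these were Mt2A (2.43, adjusted p = 0.0566), Mt1 (1.81, adjusted p = 0.177) and Ccnd1 (−1.93, adjusted p = 0.112). Kng1 (1.71, adjusted p = 0.117), Acss2 (1.08, adjusted p = 0.111), Lss (1.34, adjusted p = 0.171) and Fdps (0.82, adjusted p = 0.176) were others.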

Additional observations from a re-analysis of the deposited data

Results flagged for a closer look

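Single livers stood away from the other 4 of their group in 17 of 108 groups of 5 values examined. The measure was the gap to the nearest value over the group's range, above 0.71, which chance gives in about 1 in 20. A2m, Lcn2, Prss1 and Cela1 were examined because EF 1 or control 5 was known to be extreme in such genes. The count of 17 therefore cannot be set against that rate. Control 5 was such a liver for Cel (487 CPM), Ctrc (113 CPM), Cela2a (180 CPM), Prss1 (445 CPM) and Cela1 (201 CPM), and also for Kng1 (598 CPM), Cyp1b1 (1.77 CPM) and Lcn2 (4.98 CPM). EF 1 was such a liver for Lcn2 (51.5 CPM), A2m (17.2 CPM), Cyp1a1 (6.78 CPM) and Cyp1b1 (1.73 CPM), and EF 5 for Colq (7.95 CPM) and Gsta3 (46.8 CPM). Among the other controls the values were 25.6 CPM for Lss in control 3, 45.5 CPM for Acss2 in control 4 and 13.4 CPM for Tle3 in control 6.

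The EF difference with LPS differed from that without LPS, by the interaction test, for 8 cholesterol genes: Msmo1 (−2.47), Acat2 (−2.23), Sqle (−2.2), Hmgcs1 (−2.17), Idi1 (−2.14), Mvd (−2.14), Hsd17b7 (−1.77) and Fdft1 (−1.34), all on the log2 scale.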

How the results depend on the processing

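Against 136 calls in EF against control (97 higher, 39 lower), only the groups compared gave 35 (31 and 4), and 27 and 2 of them were shared. Without control 5 and EF 1 together the counts were 52 (38 and 14), and without EF 1 and EF 5 together, chosen after seeing the data, 26 (23 and 3). DESeq2 called 265 (173 and 92). Limma-trend on log2(TPM + 1) called 58 higher, and with no filter 71 (47 and 24); with no low-count filter edgeR called 18 lower. Leaving out each liver gave 56 to 216 calls, 43 to 143 higher and 13 to 73 lower.

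LPS_EF against LPS had 16 calls; it had 4 with no filter, 6 with only the groups compared, 5 with limma-voom, 6, 9 and 7 with limma-trend on log2(TPM + 1), on log2(TPM + 0.1) and unfiltered, 90 with DESeq2, and 2 to 21 when a liver was left out. The interaction had 16 calls; it had 9 with only the groups compared, 3 without control 5 and EF 1, 4 without EF 1 and EF 5, 10 with limma-voom, 29 with DESeq2, and 5 to 22 when a liver was left out. The causes were not tested.

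Replicate numbers 3, 4 and 5 occur in both control and EF, with correlations of deviations of −0.0705, 0.116 and −0.132, so the numbers were not taken to pair the livers. A replicate block gave 94 calls higher and 42 lower (65 and 22 shared), 3 for LPS_EF against LPS and 0 for the interaction.

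Of the 54 named genes tested, 1 changed sign: Cyp1b1, which was not called, at −0.3 with all livers, at 0.35 without control 5 (adjusted p = 0.932) and from −1.27 to 0.35 over the single omissions. RLE scaling changed the call of 0 named genes, total counts 2 and only the groups compared 26 of 50. Depth limits Ahrr, at 5 counts or fewer a group.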
